A study of Mus musculus with 8 samples.

Results

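CD115-negative (nCD115-) and CD115-positive (nCD115+) monocytes from the bone marrow (BM) of naive, tumor-free mice were compared gene by gene. CD115 is the receptor for colony-stimulating factor 1, encoded by Csf1r. The comparison took the 4 libraries of naive mice, 2 nCD115- and 2 nCD115+, of the 8 in the series, and all 16160 genes with a deposited count, of which 13211 passed a filter on low counts and were tested. The other 4 libraries hold the CD115-negative (tCD115-) and CD115-positive (tCD115+) cells of mice bearing EL4, a lymphoma line of C57BL/6 origin, collected 21 days after tumor inoculation. All cells came from wild-type C57BL/6 mice, male or female and 6 to 10 weeks old, with no transgene or treatment beyond the tumor. Each library was made from sorted CD11c-CD11b+Ly6G-SiglecF-Ly6Chi BM cells that were then split on CD115. The 2 libraries of a group were described as biological replicates. No source used here says whether a library pooled several animals, so p-values measure the spread between these libraries.

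Classical monocytes and neutrophils arise in BM from shared granulocyte-monocyte progenitors. Signalling through CD115 and the factors IRF8 and KLF4 favour the monocyte branch, whereas GFI1 and C/EBP epsilon drive the neutrophil branch, in which granule proteins are made in waves: primary (azurophil) granules in promyelocytes, secondary (specific) granules in myelocytes and tertiary (gelatinase) granules later. Ly6C and CD11b mark both lineages, and Ly6G marks neutrophils.

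The promoters of 5 genes are printed because these genes, Ngp, Ltf, Camp, S100a8 and S100a9, took the largest part of the difference in counts described next: together they held 4.49% and 5.71% of all counts in the nCD115- libraries, against 0.0412% and 0.0467% in the nCD115+ libraries. Each sequence is the 250 bases before the annotated start, 5′ to 3′ on the strand of the gene, from RefSeq on GRCm38.p6. They lie at chr9:110419558-110419807 (plus strand, Ngp), chr9:111019042-111019291 (plus strand, Ltf), chr9:109849457-109849706 (minus strand, Camp), chr3:90668821-90669070 (plus strand, S100a8) and chr3:90695722-90695971 (minus strand, S100a9). Ngp, Ltf and Camp lie within chromosome 9, and S100a8 and S100a9 are neighbours on chromosome 3.
Ngp promoter: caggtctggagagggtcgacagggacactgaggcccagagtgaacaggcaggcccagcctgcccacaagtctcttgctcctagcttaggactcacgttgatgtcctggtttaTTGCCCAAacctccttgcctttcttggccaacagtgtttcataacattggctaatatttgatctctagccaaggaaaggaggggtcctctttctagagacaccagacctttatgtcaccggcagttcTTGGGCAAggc
Ltf promoter: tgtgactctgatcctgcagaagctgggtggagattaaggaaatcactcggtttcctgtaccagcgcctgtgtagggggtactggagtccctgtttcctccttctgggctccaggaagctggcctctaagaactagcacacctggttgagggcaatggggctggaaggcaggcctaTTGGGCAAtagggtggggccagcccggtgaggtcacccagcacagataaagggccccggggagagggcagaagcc
Camp promoter: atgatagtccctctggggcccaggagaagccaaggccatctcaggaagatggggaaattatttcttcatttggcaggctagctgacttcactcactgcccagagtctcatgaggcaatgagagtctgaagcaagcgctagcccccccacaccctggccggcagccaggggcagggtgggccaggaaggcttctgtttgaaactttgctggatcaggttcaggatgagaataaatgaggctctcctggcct
S100a8 promoter: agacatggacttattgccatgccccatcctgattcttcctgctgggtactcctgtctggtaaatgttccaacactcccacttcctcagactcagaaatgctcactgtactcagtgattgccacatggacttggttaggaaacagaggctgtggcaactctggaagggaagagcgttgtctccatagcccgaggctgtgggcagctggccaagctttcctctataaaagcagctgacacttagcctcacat
S100a9 promoter: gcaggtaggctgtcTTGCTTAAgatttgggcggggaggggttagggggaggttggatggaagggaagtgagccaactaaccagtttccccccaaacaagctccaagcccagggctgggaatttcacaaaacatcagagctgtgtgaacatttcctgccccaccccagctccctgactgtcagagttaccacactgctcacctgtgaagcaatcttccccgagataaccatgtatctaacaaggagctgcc
Capitals mark TTGCNNAA, a core form of the site bound by C/EBP factors, searched on both strands. It was found 138 and 11 bases before the start of Ngp, 75 bases before that of Ltf and 236 bases before that of S100a9, and the letters were not in these windows of Camp and S100a8. Of all 27025 RefSeq promoters of this length, 9.55% held it. Matches are a description of letters only. A promoter was found by symbol for 10028 of the genes tested, and 7.67% of these held a match. The share was 12.1% for the 568 found of the 757 genes called higher, and 8.16% for the 49 found of those called lower. These differences were not tested.

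The 4 naive libraries held 83596134 to 94268825 counts, so that 1 read was 0.0106 to 0.0120 CPM, the count scaled to a fixed library size. Replicate libraries correlated across genes at r = 0.989 and 0.991 (log2 CPM, genes are not independent), and libraries of different subsets at 0.953 to 0.963. The 20 genes with the most counts took 12.6% and 13.7% of the nCD115- counts, against 8.35% and 9.04% of the nCD115+ counts. CPM below carries TMM scaling (trimmed mean of M-values) and is given as library 1, then library 2. Log2 fold changes are nCD115- over nCD115+, from edgeR's quasi-likelihood test. That test gives no SE. The value after ± is an approximate SE, the size of the log2 fold change divided by the square root of the F statistic. A gene was called where its p, adjusted by the method of Benjamini and Hochberg, was under 0.05 and it differed at least 2-fold.

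The genes of the sorting gate were read first, since they check the labels. Csf1r, which encodes CD115 itself, was detected in both subsets, at 825 and 728 CPM in nCD115- cells against 1159 and 1333 CPM in nCD115+ cells. The difference was not called (log2 fold change -0.68 ± 0.22, adjusted p = 0.0805, edgeR). Ly6c2, which encodes Ly6C, was at 1782 and 1638 CPM in nCD115- cells and 1943 and 1803 CPM in nCD115+ cells (log2 fold change -0.13), and Ly6c1 and Itgax (CD11c) were not called either. Itgam, which encodes CD11b, was at 1308 and 1492 CPM in nCD115- cells against 868 and 989.7 CPM in nCD115+ cells, an increase of less than 2-fold (0.59, adjusted p = 0.0151, edgeR). Transcripts of the 2 antigens used to exclude neutrophils and eosinophils were called higher. Ly6g, at 20.3 and 25.0 CPM in nCD115- cells against 0.36 and 0.45 CPM in nCD115+ cells, had a log2 fold change of 5.80 ± 0.39 (adjusted p = 9.41e-05, edgeR). Siglecf was at 5.83 and 7.78 CPM in nCD115- cells and 1.28 and 1.14 CPM in nCD115+ cells (2.49 ± 0.25). The gate selects on surface protein, and the count table on RNA. In sorted bulk samples, fewer cells of a type and less RNA per cell cannot be told apart.

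The difference between the subsets lay mostly in one direction. In nCD115- cells 757 genes were called higher, 5.73% of those tested, and 64 were called lower, 0.484%, or 821 in all, 6.21%. The median log2 fold change was 2.44 over the higher genes, -1.21 over the lower genes and -0.01 over all genes tested. Called genes at 0 in a subset lay beyond the first 2 medians even at their bound, so those medians could not depend on their fitted values. Without the fold limit, 1561 genes were higher (11.8%) and 427 lower (3.23%). The higher genes reached much larger folds: of the 666 with more than 3 reads in nCD115+, 358 were at least 4-fold, 146 at least 16-fold and 46 at least 64-fold higher, whereas 6 of the 62 lower genes with more than 3 reads in nCD115- were at least 4-fold lower. A mean of at least 10 CPM was reached by 320 higher and 14 lower genes. All 64 lower genes and 726 of the higher genes were protein coding. As a share of all counts, the 757 higher genes held 9.02% and 11.3% in nCD115- cells, against 1.44% and 1.47% in nCD115+ cells. The count of lower genes rested on single libraries: 8 were called without nCD115- replicate 2, 22 without nCD115+ replicate 1 and 32 without nCD115+ replicate 2, and 40 without either tCD115+ library, which shares the estimate of spread. Higher genes numbered 492 without nCD115- replicate 2.

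**Figure D1:**
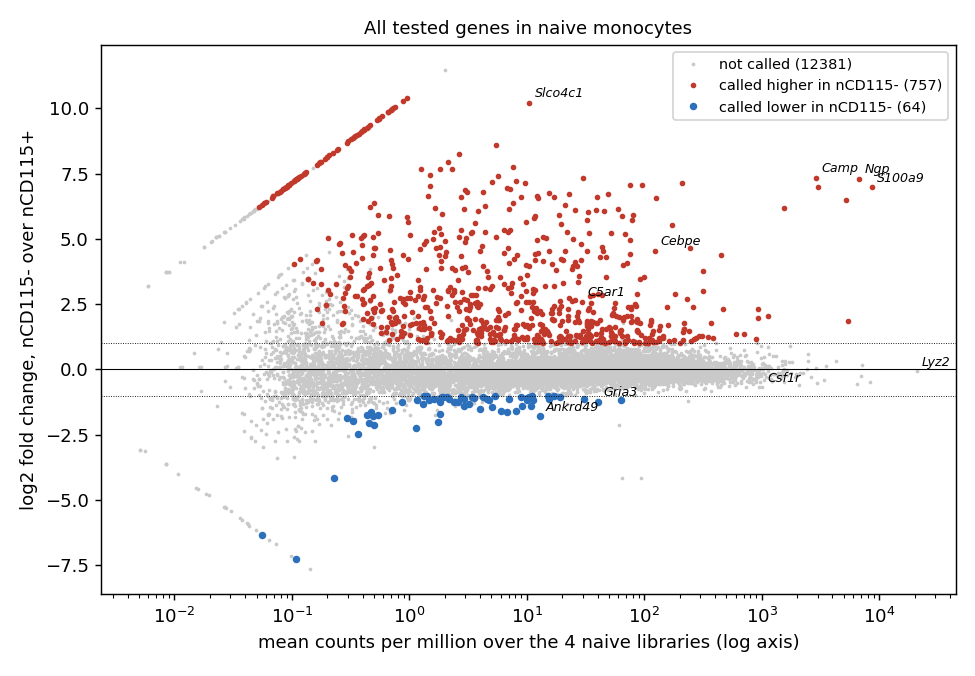
Log2 fold change of nCD115- over nCD115+ (vertical axis) against mean CPM over the 4 naive libraries (horizontal log axis) for every tested gene with a read in these libraries. Red points are the 757 genes called higher in nCD115-, blue points the 64 called lower and grey points the rest, dotted lines mark 2-fold, and the slanting rows of points are genes without reads in a subset, whose fitted value depends on the prior count.

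Secondary granule genes had the largest median change of the 36 lists. Of 15 tested, 11 were called higher and none lower (edgeR, 13 at any fold, all higher), with a median log2 fold change of 6.17 against -0.01 over all genes, and all 15 values were positive. Camp encodes the antimicrobial peptide cathelicidin. It reached 5153 and 6463 CPM in nCD115- cells, against 33.5 and 38.0 CPM in nCD115+ cells, so that the nCD115+ mean was 0.616% of the nCD115- mean (log2 fold change 7.34 ± 0.36, adjusted p = 2.52e-05, edgeR). Ngp, which encodes neutrophilic granule protein, a relative of the cathelicidins, was at 11591 and 15159 CPM in nCD115- cells and 78.2 and 90.5 CPM in nCD115+ cells (7.31 ± 0.34). Ltf encodes the iron-binding protein lactoferrin and was at 4991 and 6915 CPM in nCD115- cells against 40.7 and 52.1 CPM in nCD115+ cells (7.0 ± 0.33). In these 3 genes both nCD115- libraries lay far above both nCD115+ libraries.

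The order among the other secondary granule genes was wide. Chil1, a chitinase-like lectin, was at 129 and 172 CPM in nCD115- cells against 0.967 and 1.27 CPM in nCD115+ cells (7.07), and Itgb2l, an integrin beta 2-like protein, at 349 and 476 CPM in nCD115- cells against 2.73 and 3.15 CPM in nCD115+ cells (7.13). Olfm4, a glycoprotein of a subset of neutrophils, was at 69.9 and 87.7 CPM in nCD115- cells and 0.72 and 0.89 CPM in nCD115+ cells (6.61 ± 0.18, adjusted p = 8.53e-06, edgeR). Orm1, an acute-phase protein also stored in granules, was at 29.4 and 37.9 CPM against 0.36 and 0.327 CPM in nCD115+ cells (6.61). Some members differed by less. Cd177, a neutrophil surface protein, was at 1269 and 1716 CPM in nCD115- cells and 341 and 415 CPM in nCD115+ cells (1.98 ± 0.21), and Chil3, a chitinase-like protein of monocytes and neutrophils named here after its values were seen, at 7793 and 9196 CPM against 1905 and 2822 CPM in nCD115+ cells (1.85).

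Among late neutrophil genes (the tertiary granule list), 12 of 23 tested were called higher and none lower, with a median of 2.05. S100a9 and S100a8 encode the subunits of calprotectin, the main cytosolic protein of neutrophils. S100a9 was at 14945 and 19378 CPM in nCD115- cells against 125 and 149 CPM in nCD115+ cells (6.97 ± 0.45, adjusted p = 7.58e-05, edgeR), and S100a8 at 9070.3 and 11540.0 CPM against 109.9 and 121 CPM in nCD115+ cells (6.48 ± 0.40). Their scale is clearest per length. In the deposited FPKM, which divide counts by transcript length and depth, S100a9 ranked 1 and S100a8 ranked 2 of all genes in nCD115- cells, at means of 31281 and 25087 FPKM, and ranked 250 and 224 in nCD115+ cells, at 269 and 303 FPKM. Ngp and Camp followed at ranks 4 and 5 in nCD115- cells (10992 and 9254 FPKM), against ranks 1041 and 1346 in nCD115+ cells (74.9 and 61.5 FPKM).

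Other members of the same list were at lower levels than S100a8 and S100a9, and 11 of the 23 were not called. Cxcr2, the receptor that draws neutrophils out of marrow, was at 22.7 and 30.4 CPM in nCD115- cells against 0.787 and 0.798 CPM in nCD115+ cells (5.06), and Il1r2, the decoy interleukin 1 receptor, at 16.1 and 22.8 CPM against 1.08 and 1.38 CPM in nCD115+ cells (3.98). Wfdc21, a small secreted WAP-domain protein, was at 217 and 282 CPM in nCD115- cells against 2.24 and 2.96 CPM in nCD115+ cells (6.58). Mmp9, the gelatinase that names the granule, was at 8.54 and 14.7 CPM in nCD115- cells against 0.855 and 1.5 CPM in nCD115+ cells, with a wide error (3.29 ± 0.71, adjusted p = 0.027, edgeR). Mmp8, the neutrophil collagenase, was at 178 and 178 CPM in nCD115- cells and 159 and 210.3 CPM in nCD115+ cells and was not called (-0.06). Mmp9 and Mmp8 were named after their values were seen.

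Primary granule genes differed less. Of 12 tested, 5 were called higher and none lower, with a median of 0.79. Prss57, a serine protease of azurophil granules, was at 40.5 and 52.0 CPM in nCD115- cells against 2.76 and 3.16 CPM in nCD115+ cells (3.96). Ms4a3, a membrane protein of granulocyte-monocyte progenitors, was at 161 and 202 CPM in nCD115- cells against 19.1 and 12.3 CPM in nCD115+ cells (3.53), and Serpinb1a, an inhibitor of neutrophil serine proteases, at 500.3 and 630.2 CPM against 76.8 and 64.7 CPM in nCD115+ cells (3.0). Elane, which encodes neutrophil elastase, was at 496 and 662 CPM in nCD115- cells and 194 and 139 CPM in nCD115+ cells (1.8 ± 0.27, adjusted p = 0.00431, edgeR). Mpo, which encodes myeloperoxidase, was at 855 and 1172 CPM in nCD115- cells against 475 and 318 CPM in nCD115+ cells (1.35 ± 0.30, adjusted p = 0.0227, edgeR). The call of Mpo was lost without nCD115- replicate 2 (adjusted p = 0.170) and without nCD115+ replicate 2 (0.147).

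The remaining primary granule genes include Lyz2 and Prtn3, named after their values were seen. Lyz2, the lysozyme of both monocytes and neutrophils, was at 20941 and 19764 CPM in nCD115- cells and 19896 and 22824 CPM in nCD115+ cells. Its libraries overlapped (log2 fold change -0.07, adjusted p = 0.701, edgeR), and it ranked 3 in nCD115- cells and 1 in nCD115+ cells by mean FPKM. Prtn3, which encodes proteinase 3, was at 484 and 597 CPM in nCD115- cells against 320.4 and 222 CPM in nCD115+ cells and stayed just under 2-fold (0.99, adjusted p = 0.0374, edgeR).

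**Figure D2:**
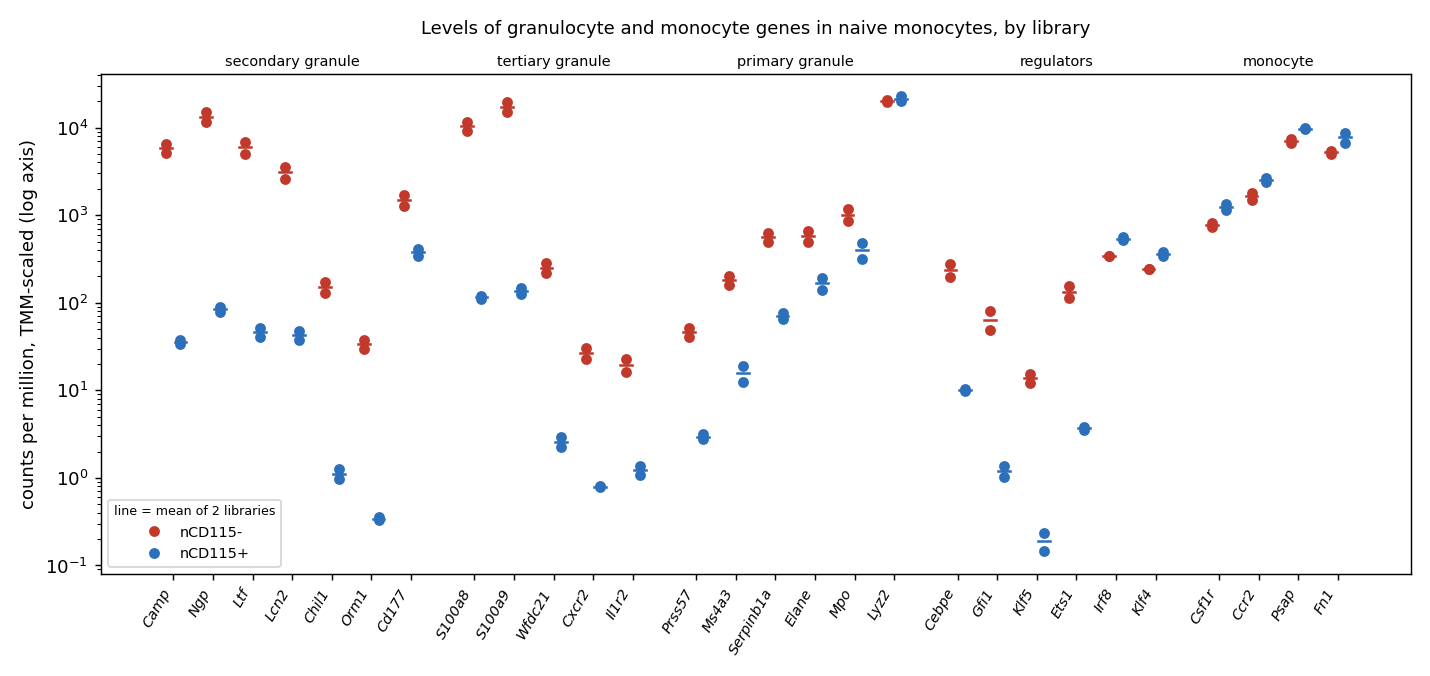
TMM-scaled CPM (log axis) in each naive library for granulocyte and monocyte genes, ordered by list, with nCD115- in red left of nCD115+ in blue. Points are libraries and lines the means of 2 libraries. Camp, at 5153 and 6463 CPM in nCD115- cells against 33.5 and 38.0 CPM in nCD115+ cells, is among the widest gaps, whereas the points of Lyz2 overlap and those of Csf1r lie close together.

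Transcription factors of the neutrophil branch were split. Of 15 granulocyte regulators tested, 5 were called higher and none lower, with a median of 0.09. Cebpe, which encodes C/EBP epsilon, the factor needed for secondary granule genes, was at 197 and 279.6 CPM in nCD115- cells against 9.95 and 10.4 CPM in nCD115+ cells (4.55 ± 0.23, adjusted p = 2.92e-05, edgeR). Gfi1, a repressor that drives neutrophil commitment, was at 48.5 and 79.8 CPM in nCD115- cells against 1.03 and 1.38 CPM in nCD115+ cells (5.73 ± 0.38). Klf5, a Kruppel-like factor, was at 12.1 and 15.6 CPM in nCD115- cells and 0.146 and 0.235 CPM in nCD115+ cells (6.16), and Ets1 at 112 and 157 CPM against 3.53 and 3.86 CPM in nCD115+ cells (5.18). Per3, a clock gene, also rose (2.08). In the same list, Spi1, Cebpa and Cebpb, named after their values were seen, were not called. Spi1, which encodes the myeloid master factor PU.1, was at 414 and 436 CPM in nCD115- cells and 396 and 403 CPM in nCD115+ cells (0.09).

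Of 17 monocyte regulators, 13 had negative values, with a median of -0.46. None was called lower and 2 were called higher (11.8%, against 5.73% of all tested genes), Bhlhe40 (1.92) and Egr1 (1.77). Without nCD115- replicate 1, nCD115- replicate 2 or nCD115+ replicate 2 the count was 1. Irf8 and Klf4 were chosen after their values were seen, as the factors best known for the monocyte branch. Irf8 was at 344 and 342 CPM in nCD115- cells against 522 and 558 CPM in nCD115+ cells (log2 fold change -0.66, adjusted p = 0.0585, edgeR), and Klf4 at 244 and 243 CPM against 342 and 383 CPM in nCD115+ cells (-0.57, adjusted p = 0.118, edgeR). Neither gene was called.

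Of 15 progenitor regulators, 3 were called higher (20%, against 5.73% of all tested genes) and none lower (median 0.12). Erg, an ETS factor of stem and progenitor cells, was at 17.8 and 27.1 CPM in nCD115- cells against 1.2 and 0.921 CPM in nCD115+ cells (4.40). Hlf, a factor of primitive progenitors, was at 4.87 and 5.94 CPM in nCD115- cells and 0.0787 and 0.184 CPM in nCD115+ cells (5.33). Myb, a factor of proliferating progenitors, was at 66.1 and 86.8 CPM in nCD115- cells and 32.5 and 24.6 CPM in nCD115+ cells (1.42). Of 14 progenitor surface genes tested, 1 was called higher (7.14%, near the 5.73% of all tested genes). Also 1 was called lower (7.14%, against 0.484%). Kit, the stem cell factor receptor, was at 41.9 and 55.4 CPM in nCD115- cells against 2.96 and 2.72 CPM in nCD115+ cells (4.10), whereas Cd34 was at 6.26 and 3.83 CPM against 16 and 10.6 CPM in nCD115+ cells (-1.40 ± 0.27, adjusted p = 0.0132, edgeR). The call of Cd34 was lost without nCD115- replicate 2 and without nCD115+ replicate 1. The other 12 of 14 tested surface genes were not called.

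Of 29 monocyte genes tested, none was called by edgeR or by DESeq2. In this list 27 values were negative, the median was -0.48, and 18 were lower and 2 higher at an unadjusted p under 0.05. The 18 became 2 without nCD115- replicate 2, 3 without nCD115+ replicate 2 and 9 without nCD115+ replicate 1. The 18 became 23 by DESeq2, 24 in the 4 naive libraries alone and 21 with library totals alone. Without the fold limit, 2 were lower in the main fit. Ccr2, the chemokine receptor that releases monocytes from marrow, was one of them, at 1803 and 1511 CPM in nCD115- cells against 2384 and 2683 CPM in nCD115+ cells (-0.61, adjusted p = 0.0488, edgeR). Fn1, which encodes fibronectin, was at 4962 and 5460.2 CPM in nCD115- cells against 6672 and 8775 CPM in nCD115+ cells (-0.57). Psap, which encodes the lysosomal protein prosaposin, was at 7473 and 6676 CPM in nCD115- cells against 9589 and 9928 CPM in nCD115+ cells (-0.46, adjusted p = 0.126, edgeR), and F13a1, the coagulation factor XIII A subunit, at 2506 and 2301 CPM against 3278 and 3696 CPM in nCD115+ cells (-0.54). Summed over the list, monocyte genes were at 33874 and 31478 CPM in nCD115- cells and 41539 and 46411 CPM in nCD115+ cells. Ccr2, F13a1 and Cx3cr1 were named after their values were seen. Cx3cr1, the fractalkine receptor, had the most negative value of the list (-0.71, adjusted p = 0.0633, edgeR). None of 17 nonclassical monocyte genes was called by edgeR or by DESeq2 (median -0.12), with 3 higher and 4 lower at an unadjusted p under 0.05 (1 lower without nCD115- replicate 2 or nCD115+ replicate 2). Without nCD115- replicate 1 or nCD115+ replicate 2, 1 was called higher.

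**Figure D3:**
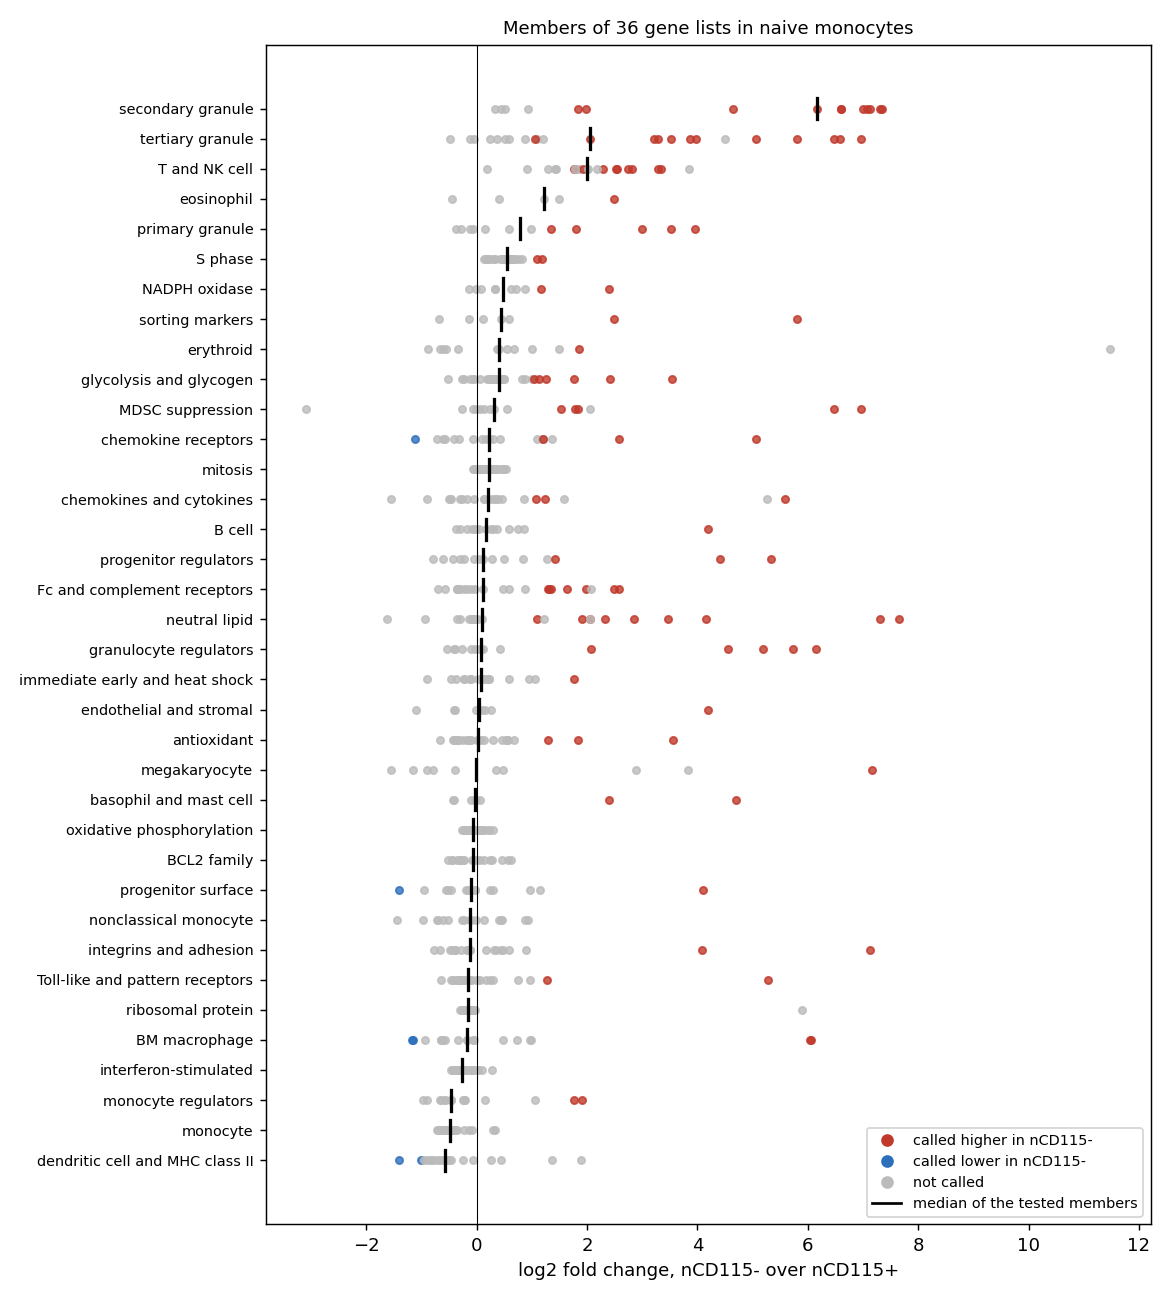
Log2 fold change of nCD115- over nCD115+ for each tested member of the 36 gene lists, ordered by list median (black bars). Red members were called higher, blue members lower and grey members were not called. Secondary granule genes stand at the top with a median of 6.17, and the 29 monocyte genes lie near the bottom with a median of -0.48 and no call.

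The 14 lower genes chosen by rule, all called lower with a mean of at least 10 CPM, fell less than 4-fold and were of mixed function. Ankrd49, an ankyrin repeat protein, had the largest fall, at 5.11 and 6.48 CPM in nCD115- cells against 19.3 and 20.8 CPM in nCD115+ cells (-1.79 ± 0.14, adjusted p = 0.000166, edgeR). Cd209a, a DC-SIGN family lectin of monocyte-derived dendritic cells, was at 6.31 and 5.58 CPM in nCD115- cells against 15.2 and 16.4 CPM in nCD115+ cells (-1.41). Gria3, an AMPA glutamate receptor subunit, was at 26.9 and 20.8 CPM in nCD115- cells against 64.6 and 48.1 CPM in nCD115+ cells (-1.24 ± 0.18). Mrc1, the macrophage mannose receptor, was at 7.03 and 5.34 CPM in nCD115- cells and 13.8 and 14.2 CPM in nCD115+ cells (-1.18), and Eng, the TGF-beta co-receptor endoglin, at 11 and 9.08 CPM against 20.6 and 20.4 CPM in nCD115+ cells (-1.03).

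Tmem176b, a membrane protein of dendritic cells and monocytes, was at 44.3 and 33.8 CPM in nCD115- cells against 86.5 and 88.5 CPM in nCD115+ cells (-1.16), and Gpr183, the oxysterol receptor EBI2 that positions immune cells, at 20.1 and 18.8 CPM against 39.0 and 45.4 CPM in nCD115+ cells (-1.11). Both overlap another gene in RefSeq, Tmem176b with Tmem176a over 3882 bases and Gpr183 with Ubac2 over 12863 bases, and no source used here gives the strand setting of the counting, so reads of the pairs may be shared. The call of Gpr183 was lost without any 1 of the 4 naive libraries. Others of the lower genes chosen by rule also lost their call when single naive libraries were left out. Pld2, a phospholipase D, had a log2 fold change of -1.16, the adhesion molecule Nectin1 one of -1.14, Bahcc1 -1.08, the oxysterol-binding protein Osbpl3 -1.05, Soga1 -1.04 and Bmyc -1.02. Ciita, the master regulator of MHC class II genes, was at the threshold (8.43 and 6.25 CPM in nCD115- cells against 12.4 and 17.0 CPM in nCD115+ cells, -1.0, adjusted p = 0.0259, edgeR).

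Ciita and Cd209a were the 2 lower calls among 21 dendritic cell and MHC class II genes (none higher, median -0.58), of which 8 were lower at any fold. The count of 2 became 4 without nCD115- replicate 1, 0 without nCD115- replicate 2 or nCD115+ replicate 2 and 1 without either tCD115+ library. Cd74, the MHC class II invariant chain, named after its values were seen, was at 189 and 139 CPM in nCD115- cells against 285 and 293 CPM in nCD115+ cells (-0.81, adjusted p = 0.0174, edgeR). Of 18 BM macrophage genes, 2 fell, Mrc1 and the hemoglobin scavenger receptor Cd163 (0.852 and 0.959 CPM in nCD115- cells against 2.31 and 1.73 CPM in nCD115+ cells, -1.15), and 2 rose. Each is 11.1% of the list, against 0.484% of all tested genes called lower and 5.73% called higher. Slc40a1, the iron exporter ferroportin, was at 73.4 and 104 CPM in nCD115- cells against 1.26 and 1.39 CPM in nCD115+ cells (6.06), and Vcam1, a vascular and macrophage adhesion molecule, at 56.3 and 73.9 CPM against 1.0 and 0.982 CPM in nCD115+ cells (6.04). The lower count fell to 1, 0 and 1 without nCD115- replicate 1, nCD115- replicate 2 and nCD115+ replicate 1.

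**Figure D4:**
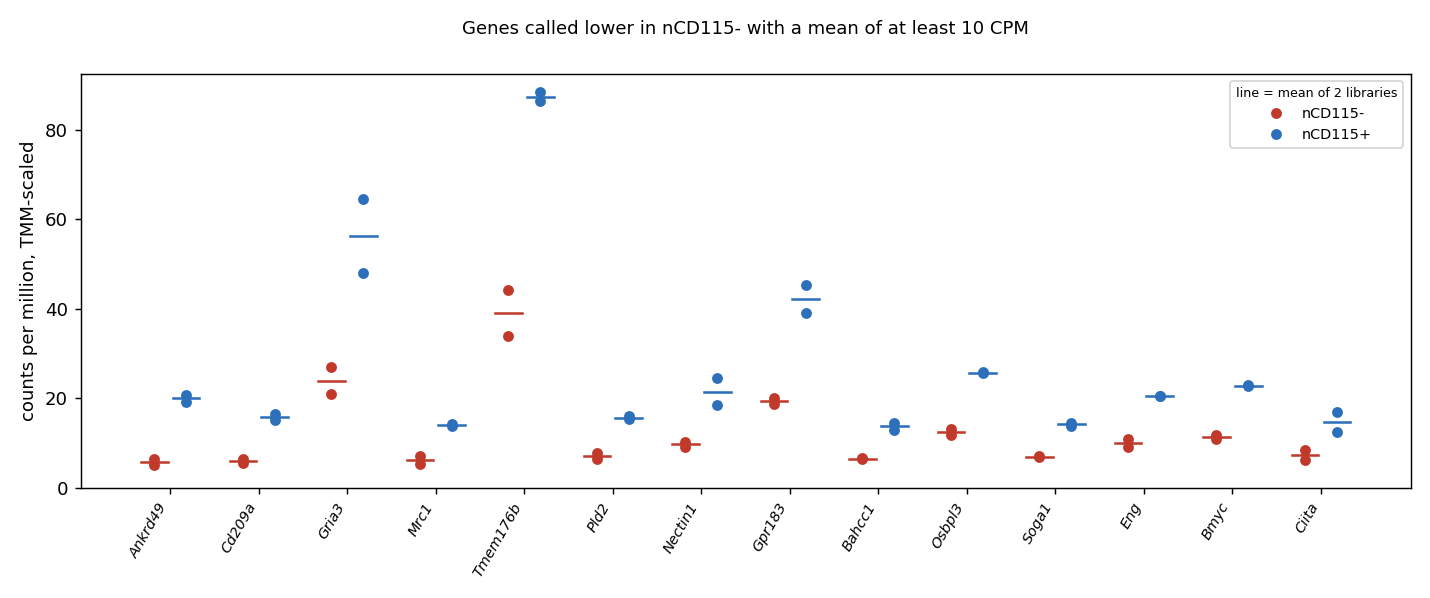
TMM-scaled CPM (linear axis from 0) in each naive library for the 14 genes called lower in nCD115- with a mean of at least 10 CPM, with nCD115- in red left of nCD115+ in blue. Points are libraries and lines means of 2. Ankrd49 shows the largest fall, with 5.11 and 6.48 CPM in nCD115- cells against 19.3 and 20.8 CPM in nCD115+ cells.

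Among higher genes that averaged 10 CPM or more, the 15 of largest fold included 8 members of the secondary and tertiary granule lists, namely Camp, Ngp, Ltf, Chil1, Itgb2l, S100a9, Orm1 and Olfm4. The other 7 were of other kinds. Slco4c1, an organic anion transporter, had 18.1 and 23.7 CPM in nCD115- cells against 0.0337 and 0 CPM in nCD115+ cells, or 3593 reads against 3, a ratio of 1295 with a 95% counting interval of 443 to 6283. Mogat2, an acyltransferase of triglyceride synthesis, was at 51 and 68.3 CPM in nCD115- cells and 0.247 and 0.491 CPM in nCD115+ cells (7.31). Inhba, the activin A subunit, was at 40.2 and 50.7 CPM in nCD115- cells and 0.495 and 0.368 CPM in nCD115+ cells (6.72).

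Prom1, which encodes the stem cell antigen CD133, was at 80.4 and 113 CPM in nCD115- cells and 0.933 and 0.9 CPM in nCD115+ cells (6.72). Sept5, a septin that forms filaments, was at 146 and 233 CPM in nCD115- cells against 1.47 and 1.36 CPM in nCD115+ cells (7.06), and its RefSeq neighbour Gp1bb, a platelet glycoprotein gene that overlaps it by 593 bases, was also called (7.16, 10.1 and 10.2 CPM in nCD115- cells against 0.0337 and 0.102 CPM in nCD115+ cells). Reads of these 2 genes may be shared. Far2, a fatty acyl-CoA reductase (6.75), and Mrgpra2b, a Mas-related receptor (6.64), completed the set.

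Some genes were read in one subset alone. Of the genes called higher, 74 had no read in either nCD115+ library. Set against 3 counts in the 2 nCD115+ libraries together, a floor for counting error alone, Perp, a p53 target, was at least 118-fold and Ednra, an endothelin receptor, at least 109-fold higher. Of the genes called lower, 2 had no read in nCD115-: Calml4 was at least 12.3-fold and Cox4i2 at least 6.47-fold lower. These genes were named after their values were seen, as those of highest bound.

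Lipid genes held 9 calls among 23 tested neutral lipid and eicosanoid genes, all higher, although the median was 0.09. In triglyceride synthesis Dgat2 was at 51.9 and 77.3 CPM in nCD115- cells against 8.41 and 9.57 CPM in nCD115+ cells (2.84), beside Mogat2 and Dgat1 (1.91). G0s2, an inhibitor of triglyceride lipase, rose by 4.16 on the log2 scale. In leukotriene synthesis Alox5, the 5-lipoxygenase, was at 140 and 194 CPM in nCD115- cells against 13.2 and 17 CPM in nCD115+ cells (3.47), and Lta4h, which makes leukotriene B4, at 687 and 865 CPM against 163 and 149 CPM in nCD115+ cells (2.32). Ltb4r1, the receptor for leukotriene B4, was at 186 and 218 CPM in nCD115- cells and 88.9 and 86.5 CPM in nCD115+ cells (1.20). Lipg, endothelial lipase, was at 3.26 and 5.98 CPM in nCD115- cells and 0.045 and 0 CPM in nCD115+ cells, where it had few reads. Acsl1, which activates long-chain fatty acids, and the cyclooxygenase Ptgs1 were also higher (1.09 and 2.06). Dgat1, Acsl1 and Ptgs1 were named after their values were seen.

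Of 30 glycolysis and glycogen genes, 6 were called higher and none lower, with a median of 0.40, and 14 were higher and 1 lower at any fold. Slc2a3, the glucose transporter GLUT3 of neutrophils, was at 72.6 and 102 CPM in nCD115- cells against 8.1 and 6.85 CPM in nCD115+ cells (3.55). Gys1, glycogen synthase, was at 102 and 142 CPM in nCD115- cells against 21.9 and 23.9 CPM in nCD115+ cells (2.41), and the glycogen branching enzyme Gbe1 changed in the same direction (1.76). Hk3, a myeloid hexokinase, was at 431 and 553 CPM in nCD115- cells and 213 and 199 CPM in nCD115+ cells (1.26). Pfkfb3, which makes the activator of phosphofructokinase, and the phosphoglucomutase Pgm2 were the other 2 (1.13 and 1.03). None of 35 oxidative phosphorylation genes was called by edgeR or by DESeq2 (median -0.07), with 1 higher and 7 lower at an unadjusted p under 0.05. The 7 became 4, 0, 1 and 3 without nCD115- replicate 1, nCD115- replicate 2, nCD115+ replicate 1 and nCD115+ replicate 2, 4 without either tCD115+ library and 15 with library totals alone. Of 10 genes of the phagocyte NADPH oxidase, which makes superoxide, 2 were called higher and 5 were higher at any fold. Ncf1, the p47-phox subunit, was at 1114 and 1362 CPM in nCD115- cells against 540.1 and 567 CPM in nCD115+ cells (1.16), and Hvcn1, the proton channel that sustains the burst, at 220 and 305 CPM against 52.4 and 46.6 CPM in nCD115+ cells (2.41).

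Receptors and secreted factors held scattered calls. C5ar1, the receptor for complement C5a, was at 42.8 and 58.3 CPM in nCD115- cells against 8.01 and 8.81 CPM in nCD115+ cells (2.59 ± 0.25, adjusted p = 0.00047, edgeR). With Cxcr2 and Ltb4r1 it made 3 of 19 chemoattractant receptors called higher (15.8%, against 5.73% of all tested genes), and Gpr183 was the 1 called lower. Of 22 chemokine and cytokine genes, 3 were called higher (13.6%, against 5.73% of all tested genes). Vegfa, the angiogenic factor, was at 33.1 and 44.1 CPM in nCD115- cells against 0.888 and 0.726 CPM in nCD115+ cells (5.58). Tnf was at 18.6 and 18.1 CPM against 9.49 and 7.8 CPM in nCD115+ cells (1.08), and Ccl5 was the other (1.23). The call of Ccl5 was lost without nCD115- replicate 1, nCD115- replicate 2 or nCD115+ replicate 1, and that of Tnf without nCD115+ replicate 2 and with library totals alone. Of 25 Toll-like and pattern receptor genes, Nlrp12 (5.28) and Clec5a (1.28) were called higher and none lower. That is 8%, near the 5.73% of all tested genes called higher. Among 23 Fc, complement and Siglec receptors 7 were called higher and none lower, of which C5ar1, Siglecf and Cd177 had the largest folds. The Siglec lectins Cd33 (67.9 and 83.2 CPM in nCD115- cells against 22.6 and 26 CPM in nCD115+ cells, 1.64), Siglece (1.35) and Siglecg (1.3) rose with them. Of 21 integrin and adhesion genes 2 were called, both higher (9.52%, against the same 5.73%). They were Itgb2l and the tetraspanin Cd9 (122 and 146 CPM in nCD115- cells against 8.0 and 7.81 CPM in nCD115+ cells, 4.08).

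Of 15 genes tied to suppression by myeloid-derived suppressor cells, 5 were called higher, and 3 without nCD115- replicate 2, nCD115+ replicate 1 or nCD115+ replicate 2. Beside S100a8 and S100a9 they were the prostaglandin E synthase Ptges (8.29 and 10.7 CPM in nCD115- cells against 3.28 and 3.3 CPM in nCD115+ cells, 1.53), the cystine transporter Slc7a11 (1.83) and Nt5e, which makes adenosine (1.78), the last at under 1 CPM in every library. Of 25 antioxidant genes, 3 were called higher (1 without each of the same 3 libraries), Slc7a11, Nqo1 (1.29) and Mgst2. The 3 are 12% of the list, against 5.73% of all tested genes called higher. Mgst2, a microsomal glutathione transferase, was at 47.4 and 55.7 CPM in nCD115- cells against 5.11 and 3.62 CPM in nCD115+ cells (3.56). None of 18 BCL2 family genes was called by edgeR or by DESeq2, with 2 higher and 5 lower at an unadjusted p under 0.05 (1 lower without nCD115- replicate 2, 3 without either nCD115+ library). Of 19 immediate early and heat shock genes 1 was called higher, Egr1 (5.26%, near the 5.73% of all tested genes). The call of Egr1 was lost without nCD115- replicate 1, nCD115- replicate 2 or nCD115+ replicate 2. Among 29 interferon-stimulated genes edgeR and DESeq2 called none, with a median of -0.26, 25 negative values, and 1 higher and 0 lower at an unadjusted p under 0.05. The count lower became 13 without either tCD115- library, 15 in the 4 naive libraries alone and 2 without nCD115- replicate 1. Of 46 ribosomal protein genes edgeR called none and DESeq2 called 1, and 45 had negative values (median -0.16). The 1 positive value and the DESeq2 call were those of Rps27 (5.90). It was at 322 and 2.23 CPM in nCD115- cells against 2.71 and 2.71 CPM in nCD115+ cells, and is described under other observations. At an unadjusted p under 0.05, 0 were higher and 11 lower by edgeR. The 11 became 6, 1, 2 and 3 without nCD115- replicate 1, nCD115- replicate 2, nCD115+ replicate 1 and nCD115+ replicate 2, 27 without either tCD115- library, 4 without either tCD115+ library and 37 with library totals alone.

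All 34 S phase genes had positive values, between 0.14 and 1.18 with a median of 0.54. Of these, 26 were higher at any fold, and 2 (5.88%) passed the 2-fold limit, near the 5.73% of all tested genes. Ccne2, a cyclin of the start of S phase, was at 46.9 and 44.7 CPM in nCD115- cells against 21.8 and 18.6 CPM in nCD115+ cells (1.18), and Rrm2, a subunit of ribonucleotide reductase, at 316 and 365 CPM against 168 and 151 CPM in nCD115+ cells (1.10). Without nCD115- replicate 2 or nCD115+ replicate 2 the 2 calls became 1. Summed over the list, S phase genes were at 3746 and 4071 CPM in nCD115- cells against 2802 and 2449.6 CPM in nCD115+ cells. Of 34 mitosis genes none was called by edgeR or by DESeq2, with 12 higher and 0 lower at an unadjusted p under 0.05 and a median of 0.22. The 12 became 1 without nCD115- replicate 2, 0 without nCD115+ replicate 2, and 20 and 21 without tCD115- replicate 1 and 2. Mki67, which encodes the proliferation antigen Ki-67, was at 972 and 1182 CPM in nCD115- cells and 911 and 930.1 CPM in nCD115+ cells (0.23).

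Markers of other BM cells were read as well, and their part in the results was not tested. All 21 tested T and NK cell genes had positive values (median 2.0) and 9 were called higher. The list summed to 70.9 and 81.4 CPM in nCD115- cells, against 14.4 and 11.8 CPM in nCD115+ cells. Nkg7, a granule membrane protein of cytotoxic cells, gave most of it, at 44.4 and 54.9 CPM in nCD115- cells against 5.75 and 4.05 CPM in nCD115+ cells (3.34). Cd3e, a chain of the T cell receptor complex, was near 0 in both, at 0.852 and 0.888 CPM against 0.0562 and 0.184 CPM in nCD115+ cells (2.82). Il2rb, an interleukin 2 receptor subunit, was at 5.31 and 7.06 CPM in nCD115- cells against 1.2 and 0.931 CPM in nCD115+ cells (2.54), and Cd3d, Klrb1c and Gzmb were at most 1.61 CPM in any naive library. The 9 calls became 4, 3, 2 and 3 without nCD115- replicate 1, nCD115- replicate 2, nCD115+ replicate 1 and nCD115+ replicate 2, and 16 without either tCD115- library, by DESeq2 16, and 17 in a fit of the 4 naive libraries alone.

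Of 15 B cell genes 1 was called, Jchain, the joining chain of plasma cell antibodies, at 53.2 and 56.4 CPM in nCD115- cells against 2.92 and 3.09 CPM in nCD115+ cells (4.19). The list summed to 99.3 and 97.2 CPM in nCD115- cells and 43.7 and 41.8 CPM in nCD115+ cells, a gap made mostly by Jchain. Of 8 basophil and mast cell genes 2 were called, Hdc, histidine decarboxylase, at 67.4 and 99.9 CPM in nCD115- cells against 3.31 and 3.13 CPM in nCD115+ cells (4.70), and Ms4a2 (2.40). The basophil protease Mcpt8 was at 2.87 and 2.33 CPM in nCD115- cells and 3.27 and 2.28 CPM in nCD115+ cells. Of 5 eosinophil genes Siglecf alone was called, 4 had positive values and an unadjusted p under 0.05 (2, 2, 1 and 2 without nCD115- replicate 1, nCD115- replicate 2, nCD115+ replicate 1 and nCD115+ replicate 2), and the median was 1.21. The list summed to 22 and 22.8 CPM in nCD115- cells against 12.3 and 12.8 CPM in nCD115+ cells. Ear2, an eosinophil ribonuclease and the highest of the list, was at 15 and 13.9 CPM in nCD115- cells and 10.6 and 11.2 CPM in nCD115+ cells (0.41, adjusted p = 0.0574, edgeR), and eosinophil peroxidase, Epx, was at 0.0448 and 0 CPM in nCD115- cells and 0.0225 and 0.0409 CPM in nCD115+ cells. Erythroid genes (1 of 13, Tfrc, the transferrin receptor, 1.86), megakaryocyte genes (1 of 10, Gp1bb) and endothelial and stromal genes (1 of 8, Col1a1, 4.19) had 1 call each, all higher. These are single genes, beside 5.73% of all tested genes called higher. Mcpt8 and Epx were named after their values were seen.

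Runs of at least 3 neighbouring genes of the table called in the same direction numbered 15 and were picked out after the values were seen. All were of higher genes, but 757 higher calls against 64 lower left little room for runs of lower genes. A number expected by chance was not computed. The runs included S100a8, S100a9 and Pglyrp4 on chromosome 3, Il1rl1, Il18r1 and Il18rap on chromosome 1, Plin4, Plin5 and Lrg1 on chromosome 17, the 3 Cd3 genes on chromosome 9 and 5 Gimap genes on chromosome 6. Il18rap, a subunit of the interleukin 18 receptor, was at 83.5 and 95.1 CPM in nCD115- cells against 5.57 and 3.51 CPM in nCD115+ cells (4.30), and Il18r1, the other subunit, at 8.29 and 8.9 CPM against 0.259 and 0.184 CPM in nCD115+ cells (5.28). Lrg1, a secreted leucine-rich glycoprotein, was at 94.5 and 143 CPM in nCD115- cells and 1.3 and 2.04 CPM in nCD115+ cells (6.15).

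The comparison of tCD115- with tCD115+ cells in EL4 mice shares no library with the naive one, though the fit shares the estimate of spread. It had 1105 genes higher (8.36%) and 525 lower (3.97%). Of the 757 genes higher in nCD115- cells, 707 were also called higher in tCD115- cells, 50 were not, and 753 had the same sign, with a median of 2.44 in naive and 2.88 in EL4 mice. Of the 64 lower genes, 45 were also called lower in EL4 mice and all 64 had the same sign, with medians of -1.21 in naive and -1.29 in EL4 mice. Of the 29 monocyte genes, none was called lower in naive mice and 12 were in EL4 mice, and edgeR with all libraries called no gene in the interaction described next. S phase genes had 2 calls in naive mice and 0 in EL4 mice.

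The interaction, the subset difference in naive mice minus that in EL4 mice, called no gene by edgeR, whose count at an unadjusted p under 0.05 was 751, whereas DESeq2 called 69. The genes nearest the threshold were chosen after their values were seen. C5ar1 had a log2 fold change of 2.59 in naive and -0.17 in EL4 mice, with 15.2 and 13.9 CPM in tCD115- cells and 20.3 and 12.2 CPM in tCD115+ cells (interaction 2.75 ± 0.34, adjusted p = 0.0813, edgeR). Ankrd49 had -1.79 in naive and -0.10 in EL4 mice, where the 4 libraries lay between 19.9 and 23.2 CPM (interaction -1.68 ± 0.19, adjusted p = 0.0805, edgeR). Cmah, an enzyme that modifies sialic acid, had 1.37 in naive mice and 4.6 in EL4 mice, and Csf1, the ligand of CD115, had 0.38 in naive mice, at 4.98 and 5.46 CPM in nCD115- cells against 3.79 and 4.21 CPM in nCD115+ cells, and 3.17 in EL4 mice (adjusted p = 0.0805 for both interactions, edgeR). Chtop, an RNA export factor, was at 155 and 128 CPM in nCD115- cells against 60.7 and 62.9 CPM in nCD115+ cells (1.19), and had -0.13 in EL4 mice.

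**Figure D5:**
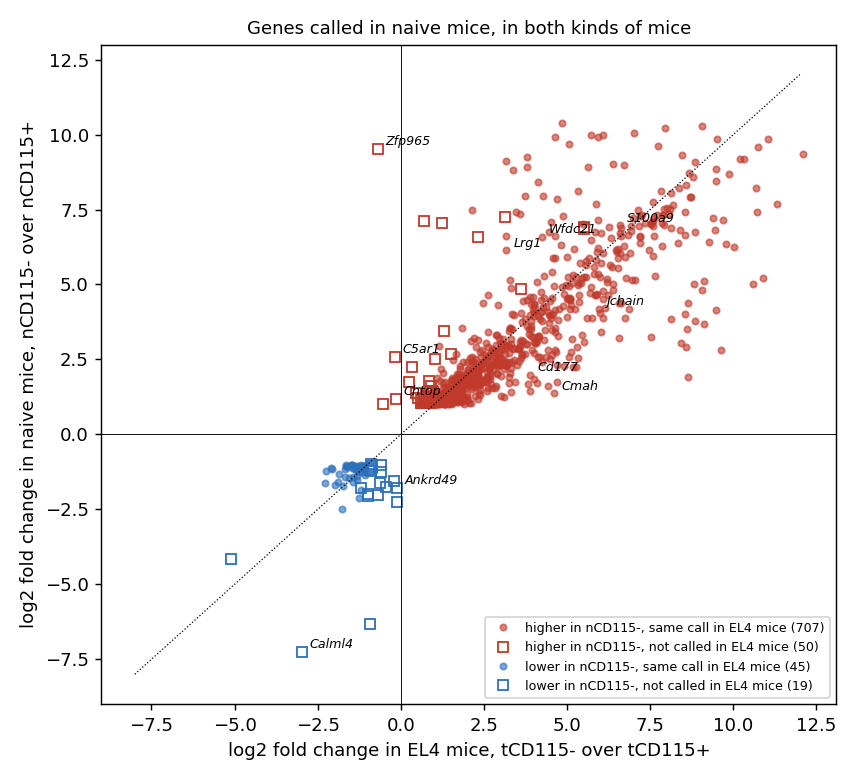
Log2 fold change in naive mice (vertical axis, nCD115- over nCD115+) against that in EL4 mice (horizontal axis, tCD115- over tCD115+) for genes called in naive mice, red if higher and blue if lower in nCD115-. Filled circles were called in the same direction in EL4 mice and open squares were not, and the dotted line marks equal values. Of the 757 higher genes 753 lie right of 0, and C5ar1, Chtop and Ankrd49 stand away from the line.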

How the data were processed

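The authors deposited 1 table with raw read counts and FPKM per gene and library, from libraries of a stranded mRNA kit. The table leaves out genes that had no read at all. Tools named in the submitters' processing notes, without roles, are bcl2fastq, HISAT2 (2.0.5), Bowtie2, BWA, StringTie (1.3.3b) and DESeq2, with build mm10. The deposited counts were tested as they stand, and the deposited FPKM were used only to rank genes per length. The authors' 24 comparison columns (fold changes and p-values) and 12 further value columns were not used.

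Counts were filtered with edgeR's filterByExpr (13211 of 16160 genes kept), scaled by TMM and fitted with the robust quasi-likelihood model to all 8 libraries with 1 mean per group (4 residual degrees of freedom, median prior 3.65), as fewer libraries leave little estimate of spread. Contrasts were nCD115- minus nCD115+, tCD115- minus tCD115+ and their difference. With 2 libraries against 2 an exact permutation test cannot go below p = 0.333, so none was run. R 4.3.3, edgeR 4.0.16, limma 3.58.1, DESeq2 1.42.0, Python 3.11.15 and matplotlib 3.10.9 were used, and the fit was tested on simulated data.

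Named genes were the up to 15 per direction of largest fold among called genes averaging 10 CPM or more whose libraries did not overlap, the genes of the sorting gate, and of each list up to 6 called members per direction by fold or, where fewer than 2 were called, the 2 of highest mean CPM. A gene of the rule is not reported here. Genes outside the rule are said to be chosen after their values were seen. The genes and the 36 lists were chosen with earlier results of these data known. RefSeq gave coordinates on GRCm38 for 16123 genes. Further named genes overlap another gene of the table, so their reads may be shared too. Among them are Ccne2 with Ints8 (5622 bases), Far2 with Ergic2 (3441), Hvcn1 with Tctn1 (2803) and Gys1 with Ruvbl2 (1333). Others are Prss57 with Fstl3 (1157) and Palm (1113), Slco4c1 with Panct2 (1068) and Ciita with Dexi (858).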

Additional observations from a re-analysis of the deposited data

How the results depend on the processing

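The calls of nCD115- against nCD115+ were recomputed with DESeq2 (836 higher, 95 lower), DESeq2 size factors in edgeR (751, 67), library totals alone (687, 103), no filter on low counts (748, 63), at least 10 counts in every library (545, 61) and the 4 naive libraries alone (859, 92). Library totals alone moved the median of all genes to -0.12. Leaving out 1 library at a time gave 492 to 832 higher and 8 to 94 lower genes, 0 to 173 interaction calls, and 26 to 30 lists with a call, against 29 with all libraries. The interaction had 69 calls by DESeq2 and 4 without a filter, against none. The cause of these changes was not tested, beyond fewer samples or genes entering the fit.

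Deviations of same-numbered libraries correlated weakly (r = 0.0778 in naive and 0.0685 in EL4 mice over 13211 genes, 2 pairs each). With 2 libraries per subset, these values cannot decide whether same-numbered libraries came from the same mice. The numbers were not treated as pairs in the main fit. With the replicate number as a block, 704 genes were higher, 60 lower and 7 called in the interaction.

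Of 125 named genes, 88 kept direction and call in every alternative in which they were tested. The filter of at least 10 counts in every library left some named genes untested. Another 6 turned sign in some alternative, and none of these was called. With library totals alone they were Ly6c1 (-0.0038) and Fos (-0.040), and with at least 10 counts Atp5b (0.0028). When 1 library was left out, Atp5b (-0.036 to 0.031) was positive without nCD115- replicate 2 or nCD115+ replicate 1. Hba-a2 (-0.16 to 0.81) was negative without nCD115- replicate 2. Itgal (-0.26 to 0.032) and Flt1 (-0.76 to 0.066) were positive without nCD115+ replicate 2. At this depth 1 read is 0.0106 to 0.0120 CPM in the naive libraries.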

Other observations

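A few genes differed between libraries of the same subset far more than between subsets. Among genes at 10 CPM or more, 10 had replicate libraries at least 8-fold apart, and none of them was called by edgeR with all libraries. DESeq2 called Rps27 higher in nCD115- cells. Rps27, a ribosomal protein gene, was at 322 and 2.23 CPM in nCD115- cells and 2.71 and 2.71 CPM in nCD115+ cells, and its retrogene Rps27rt at 1.56 and 285 CPM in nCD115- cells and 332 and 333 CPM in nCD115+ cells. The 2 genes are near-identical copies, and their sums were close in all libraries, at 323 and 287 CPM in nCD115- cells against 335 and 336 CPM in nCD115+ cells. Atp6v0c, a proton pump subunit, and Atp6v0c-ps2 likewise varied one against the other, at sums of 391 and 398 CPM in nCD115- cells against 344 and 333 CPM in nCD115+ cells.

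Jund was at 29.5 and 0.672 CPM in nCD115- cells and 29.8 and 27.0 CPM in nCD115+ cells. The stress chaperones Hspa1a (72.8 and 29.9 CPM in nCD115- cells, 75.3 and 35.7 CPM in nCD115+ cells) and Hspa1b (83.9 and 36.1 CPM in nCD115- cells, 88.5 and 42.0 CPM in nCD115+ cells) were higher in replicate 1 of both subsets. Hbb-bs, an adult hemoglobin gene, had reads in 1 naive library alone, at 8.12 CPM in nCD115- replicate 2, against 0 CPM in nCD115- replicate 1 and both nCD115+ libraries. All genes here were named after their values were seen.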
